A study of Mus musculus with 8 samples.

Results

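The 10 genes described here, Fos, Fosb, Jun, Junb, Egr1, Egr2, Egr3, Ier2, Myc and Klf4, encode proteins of the immediate early response. They were chosen by name, all 10 were found in the annotation, and they are 10 of its 21887 protein-coding genes. The measurement was chromatin immunoprecipitation followed by sequencing (ChIP-seq) in mouse embryonic fibroblasts of Hmga2 wild-type C57BL/6 embryos, taken at stage E15.5 and grown for 2 to 4 passages in medium with fetal calf serum. The 3 libraries used were immunoprecipitated for HMGA2, a chromatin protein with AT-hook domains, γ-H2AX (histone H2AX phosphorylated on serine, H2AXS139ph in the labels) and ATM, the kinase that phosphorylates H2AX after DNA damage. The libraries of Hmga2 knockout cells and both input libraries were not analysed here, and the number of embryos behind a culture is not given in the sources used here. With 1 library per antibody no replicate error exists, no test was made, and each value describes that library. Expression was not measured in these data, so the fibroblast label could not be checked against marker genes.

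Immediate early genes are transcribed within minutes of stimulation by serum, growth factors or stress, without new protein synthesis. Signals through the MAP kinases reach ternary complex factors and serum response factor, which bind the CArG box of the serum response element, and reach CREB and ATF proteins, which bind the cyclic AMP response element. Fos and Jun proteins pair to form the transcription factor AP-1, Egr proteins are zinc-finger transcription factors, and Myc and Klf4 are transcription factors of growth and of cell identity. In fibroblasts Fos, Jun, Egr1 and Myc are classical serum-induced genes, whereas Klf4 was first described as enriched in growth-arrested cells.

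The promoter sequences are shown first because the γ-H2AX peak of Jun was the one peak that covered a gene start for which sequence was held. RefSeq promoters on GRCm38.p6, the assembly to which mm10 coordinates belong, run from 250 bases before the gene start to 50 after it. They were held for 6 of the 10 genes, with entries for Fos, Fosb, Jun, Junb, Egr2 and Klf4 and none for Egr1, Egr3, Ier2 and Myc. In the 250 bases before the start of Jun (minus strand, chr4:95052223-95052472), capitals mark the 40 bases under the γ-H2AX peak, which went on for 127 bases into the gene.
Jun, γ-H2AX peak in capitals: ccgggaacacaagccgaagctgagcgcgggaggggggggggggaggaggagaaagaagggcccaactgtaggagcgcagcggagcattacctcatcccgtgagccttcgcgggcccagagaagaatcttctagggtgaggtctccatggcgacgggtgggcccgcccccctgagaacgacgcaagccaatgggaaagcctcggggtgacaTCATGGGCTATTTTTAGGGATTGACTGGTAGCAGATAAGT
The 90 bases of the promoter window under the peak had 47.8% G and C, against 60% over the whole window.

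Set side by side are the 120 bases before an annotated start of Fos, Fosb, Jun, Junb and Egr2, to show nearby response elements. The starts used for Fosb and Egr2 lie inside the gene extents given below. The printed Fosb bases from 19310046 to 19310118 are therefore within the annotated gene. Capitals mark matches on either strand to TGACG, the core of the cyclic AMP response element (its complement reads CGTCA), to the CArG box, to TATAAA and to TGACATCA, the variant AP-1 element of the Jun promoter.
Fos, plus strand, chr12:85473770-85473889: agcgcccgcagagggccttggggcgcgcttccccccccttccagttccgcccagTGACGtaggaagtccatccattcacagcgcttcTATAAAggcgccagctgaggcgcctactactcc
Fosb, minus strand, chr7:19310046-19310165: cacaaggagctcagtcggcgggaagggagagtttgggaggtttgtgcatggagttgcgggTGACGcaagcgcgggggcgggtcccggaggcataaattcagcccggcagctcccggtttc
Jun, minus strand, chr4:95052223-95052342: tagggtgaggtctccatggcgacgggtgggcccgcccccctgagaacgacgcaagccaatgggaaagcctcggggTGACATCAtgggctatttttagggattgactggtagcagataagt
Junb, minus strand, chr8:84978749-84978868: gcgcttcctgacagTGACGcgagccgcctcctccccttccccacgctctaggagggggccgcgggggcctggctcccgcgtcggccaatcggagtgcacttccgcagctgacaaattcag
Egr2, plus strand, chr10:67537749-67537868: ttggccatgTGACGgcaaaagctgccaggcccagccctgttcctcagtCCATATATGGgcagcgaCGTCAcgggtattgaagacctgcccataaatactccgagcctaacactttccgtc
TGACG was found in 5 of the 6 promoters with sequence, all but that of Jun, against 26.2% of 17492 protein-coding genes with a promoter entry. The full element TGACGTCA had no match among the 6, against 2.54% of all genes. CArG boxes were found in Egr2, against 1.76% of all genes with at least 1. The one printed lies 72 to 63 bases before the start shown, and a separate one lies before another annotated start of the gene. TGACATCA, a motif added after the sequences were seen, was found in Jun at 45 to 38 bases before the start, across the edge of the γ-H2AX peak, against 4.3% of all genes. The EGR site GCGNGGGCG was found in Fosb and Klf4, against 8.51% of all genes, and the AP-1 site TGANTCA had no match among the 6, against 8.12%. A TATAAA match was present in Fos and, just after the start and outside the bases shown, in Junb, against 14.8% of all genes. The Ets core GGAA matched in all 6, against 96.4% of all genes, and a run of at least 6 A or T in all 6, against 68.4%. These are matches of letters in these windows and are not read as bound sites. Sequence farther upstream was not searched, so a gene without a match here, such as Fos for the CArG box, may hold one there.

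Each gene was taken with 10 kb on either side, and a peak was counted when it shared at least 1 bp with that region. The 10 regions held 42 peaks, 2 to 6 per gene with a median of 4.5. HMGA2 had 16 peaks and at least 1 at all 10 genes, against 74.6% of protein-coding genes. γ-H2AX had 17 peaks at 9 genes, all but Ier2, against 79.2% of protein-coding genes. ATM had 9 peaks at 6 genes, Jun, Junb, Egr1, Egr2, Egr3 and Ier2, against 77.7% of protein-coding genes. The 10 genes are short, with a median length of 4.39 kb against 17.2 kb over all protein-coding genes, and longer regions can hold more peaks. In the flanks alone, which have 1 width for every gene, 8 of the 10 genes had an HMGA2 peak against 56.2% of protein-coding genes, 9 had a γ-H2AX peak against 61.2% and 6 had an ATM peak against 57.3%. A peak across a gene end counts in these flanks, for all genes alike, but as in the body below. This holds for the only γ-H2AX peak of Jun and the only ATM peak of Ier2.

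The number of peaks was set beside the number expected if each list were rotated around its chromosome, taken as the exact mean over all rotations. For HMGA2, 16 peaks were observed and 14.5 expected, a ratio of 1.1. For ATM, 9 were observed and 11.4 expected, a ratio of 0.791. For γ-H2AX, 17 were observed and 12 expected, a ratio of 1.42. The γ-H2AX ratio was 1.06 when the density within 1 Mb of each gene gave the expectation, with 16.1 peaks, and 0.983 with flanks of 5 kb, where 7 peaks were observed and 7.12 expected. It was higher, 1.55, with flanks of 1 kb (5 observed, 3.22 expected). For scores of at least 25 it was 1.87 (8 observed, 4.28 expected), and for scores of at least 30 it was 0 (0 observed, 1.23 expected). The ATM ratio was 1.04 with flanks of 5 kb, 1.31 with flanks of 1 kb and 0.714 from the density within 1 Mb. Of the 17 γ-H2AX peaks, 10 lay 5 to 10 kb from the gene. The same outer part of the flanks held 7 of 16 HMGA2 peaks and 2 of 9 ATM peaks. Within 5 kb, HMGA2 peaks were found at 8 of the 10 genes (65.1% of protein-coding genes), γ-H2AX peaks at 6 (70.3%) and ATM peaks at 6 (67.3%).

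**Figure D1:**
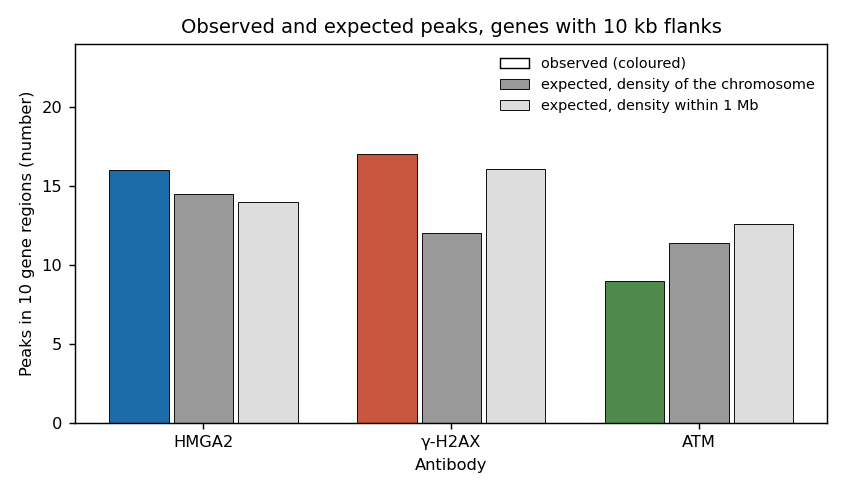
Number of peaks (y axis) in the regions of the 10 genes for each antibody (x axis), with the observed number in colour, the number expected from the density of the chromosome in dark grey and from the density within 1 Mb in light grey. The observed 17 γ-H2AX peaks stood above 12 from the chromosome and close to 16.1 from the neighbourhood, and there are no error bars because each list is 1 library.

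Over all bases of the regions, HMGA2 had 6.54 peaks per 100 kb, against 5.59 over the regions of all protein-coding genes. γ-H2AX had 6.95 peaks per 100 kb against 5.47, and ATM 3.68 against 4.59. In the gene bodies, which sum to 44.5 kb, there were 3 HMGA2 peaks (Egr1, Egr3 and Klf4), 3 γ-H2AX peaks (Jun, Egr3 and Klf4) and 1 ATM peak (Ier2). These are 6.74, 6.74 and 2.25 peaks per 100 kb of gene body, against 5.99, 5.58 and 4.68 over all protein-coding genes in the same order of antibodies. At these numbers a single peak moves each density visibly.

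**Figure D2:**
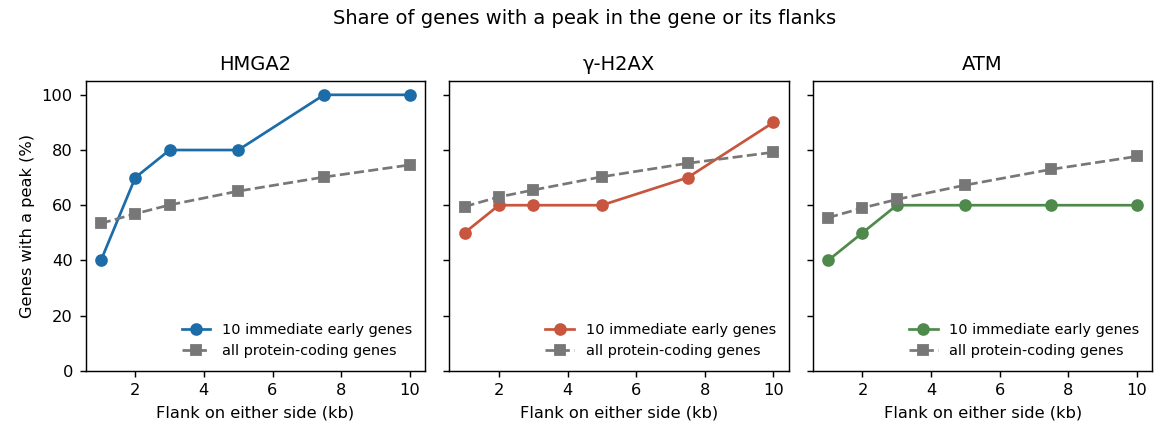
Share of genes with a peak (y axis, percent) against the flank added on either side (x axis, kb) for the 10 immediate early genes (circles, solid) and all protein-coding genes (squares, dashed), 1 panel per antibody. With flanks of 1 kb the 10 genes stood at 40% (HMGA2), 50% (γ-H2AX) and 40% (ATM), against 53.4%, 59.5% and 55.5% of protein-coding genes, and with 10 kb at 100%, 90% and 60%. The 10 genes are shorter (median 4.39 kb against 17.2 kb), which lowers their share most where flanks are short. For regions of their size with flanks of 1 kb, 4 HMGA2 peaks were observed and 3.9 expected. For γ-H2AX these were 5 and 3.22, and for ATM 4 and 3.06.

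Most of the peaks lay close to the authors' threshold, a score of 20, where the score is -10 times the log10 of the p of a peak. Of the 42 peaks, 26 scored under 25 and 3 scored 30 or more. The HMGA2 scores ran from 20.22 to 34.17 with a median of 23.84, against a median of 23.75 over the 152834 peaks of the list. The γ-H2AX scores ran from 20.56 to 29.38 with a median of 24.79, against 23.58 over 124947 peaks. The ATM scores ran from 20.52 to 43.86 with a median of 24.11, against 23.58 over 119570 peaks. A score of 25 or more was reached by 5 of 16 HMGA2 peaks (31.2%), 8 of 17 γ-H2AX peaks (47.1%) and 3 of 9 ATM peaks (33.3%), against 37.2%, 35.4% and 35.4% of the lists. A score of 30 or more was reached by HMGA2 peaks at Junb and Myc, 2 of the 10 genes against 24.4% of protein-coding genes. An ATM peak reached it at Egr3, 1 of the 10 against 21.6%. No γ-H2AX peak of the 10 genes reached 30, against 25.7% of protein-coding genes with such a peak. These shares of genes come from longer genes, with a median of 17.2 kb against 4.39 kb. Over the lists, 11.6% (HMGA2), 10.3% (γ-H2AX) and 10.2% (ATM) of peaks reached 30. From the density of the chromosomes, the 10 regions were expected to hold 1.66, 1.23 and 1.15 such peaks in the same order.

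**Figure D3:**
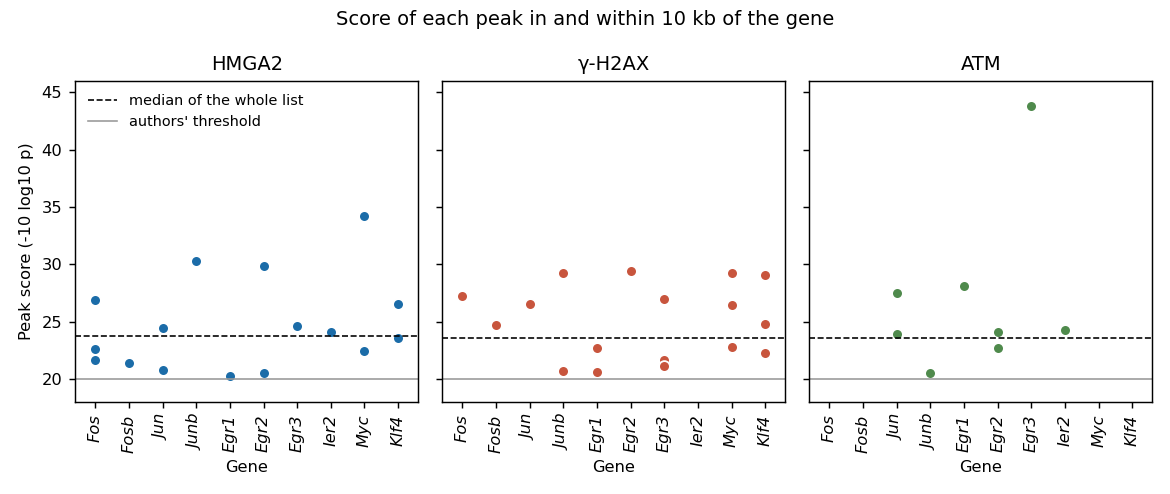
Score of each peak (y axis, -10 log10 p) by gene (x axis) for HMGA2, γ-H2AX and ATM, with the authors' threshold of 20 as a solid line and the median of the whole list as a dashed line. The ATM peak beside Egr3, at 43.86, and the HMGA2 peaks of Myc and Junb, at 34.17 and 30.26, are the points above 30.

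Fos and Fosb encode the Fos partners of AP-1, and neither had an ATM peak in its region. Fos (NCBI gene 14281, chromosome 12, 85473890 to 85477274, plus strand) carried 3 HMGA2 peaks, where 1.38 were expected from the chromosome, and 1 γ-H2AX peak. The HMGA2 peaks lay 7193 bp upstream of the gene (score 22.61) and 5802 and 9880 bp downstream of it (scores 26.85 and 21.68). The γ-H2AX peak, at 85483192 to 85483354, lay 5918 bp downstream with a score of 27.23. It shared 151 bp with the HMGA2 peak at 85483076 to 85483342, and no peak of the 3 antibodies lay within 5 kb of Fos. Fosb (gene 14282, chromosome 7, 19302696 to 19310118, minus strand) had 1 HMGA2 peak, 6939 bp upstream with a score of 21.38. Its γ-H2AX peak was much closer, 502 bp beyond the 3′ end of the gene at 19302017 to 19302194, with a score of 24.73.

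Jun and Junb encode the Jun partners of AP-1, and both had peaks of all 3 antibodies. Jun (gene 16476, chromosome 4, 95049036 to 95052222, minus strand) held the largest number of peaks of the 10 genes, 6. Its γ-H2AX peak, at 95052096 to 95052262 with a score of 26.53, covered the gene start shown above in sequence and was listed by the authors as a γ-H2AX promoter region. It ranked 30868 among the 124947 γ-H2AX peaks. The HMGA2 peaks of Jun lay on both sides, 1858 bp upstream (score 20.76) and 2279 bp downstream (score 24.44). Of the 3 ATM peaks, where 1.07 were expected from the chromosome, 2 lay downstream at 1752 and 5107 bp (scores 27.45 and 24.01) and 1 upstream at 8061 bp (score 23.92). The upstream peaks of HMGA2 and ATM lay inside Junos, a long non-coding RNA gene that begins next to Jun. The closest approach of HMGA2 and ATM at Jun was a gap of 396 bp on the downstream side.

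Junb (gene 16477, chromosome 8, 84976909 to 84978748, minus strand) had its HMGA2 peak 598 bp upstream of the start, at 84979346 to 84979492. Its score of 30.26 placed it among the top 11% of the HMGA2 list. The ATM peak of Junb lay beyond the other end of the gene, 964 bp downstream, with a score of 20.52. Its γ-H2AX peaks, 7916 and 8981 bp downstream with scores of 20.66 and 29.27, both fell inside Rnaseh2a, which encodes the catalytic subunit of ribonuclease H2. The lower-scoring one, at 84968823 to 84968993, was a γ-H2AX promoter region of the authors. It lay within 1 kb of an end of Rnaseh2a, so its place in that list need not refer to Junb.

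**Figure D4:**
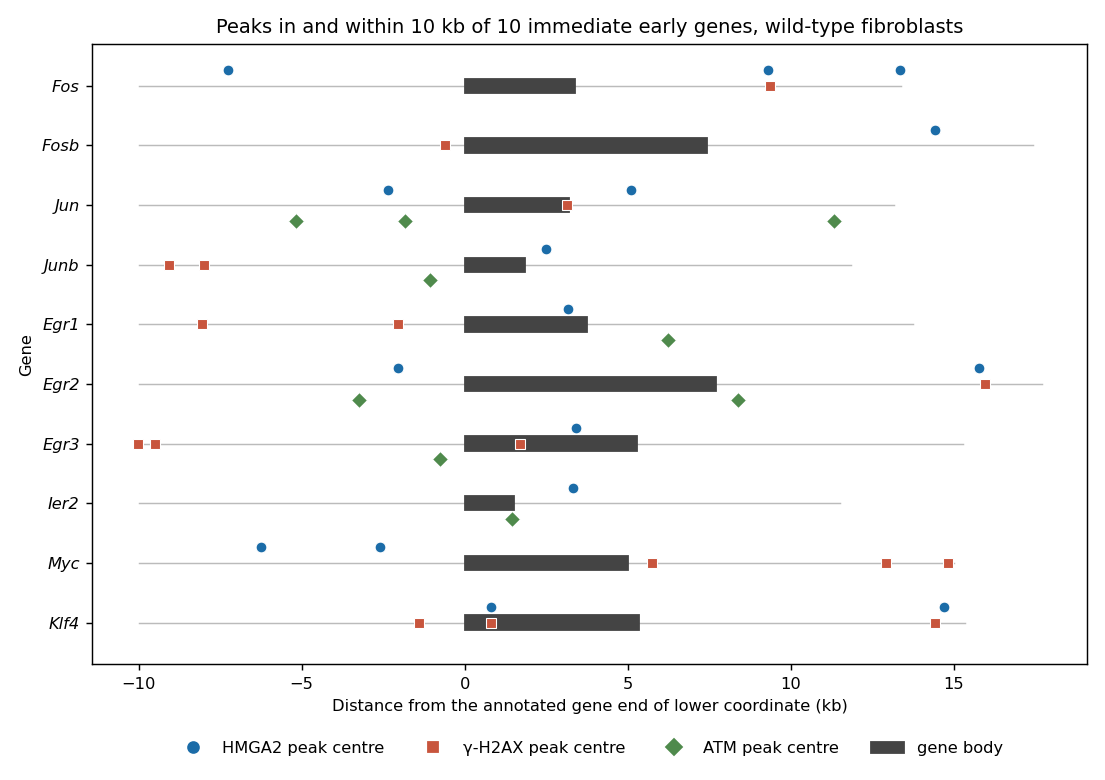
Centres of the peaks of HMGA2 (circles), γ-H2AX (squares) and ATM (diamonds) along each of the 10 genes (y axis), by distance from the gene end of lower coordinate (x axis, kb), with the gene body as a dark bar and 10 kb flanks as a thin line. Each antibody is drawn at its own height. The overlapping pairs of HMGA2 and γ-H2AX, within Klf4 and downstream of Fos and Egr2, stand at nearly the same x position. Fos, Fosb, Myc and Klf4 have no diamond.

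Egr1, Egr2 and Egr3 encode zinc-finger transcription factors that bind the same GC-rich site, and each had peaks of all 3 antibodies. Egr1 (gene 13653, chromosome 18, 34861207 to 34864956) had 1 HMGA2 peak in the gene body, at 34864284 to 34864443. That peak scored 20.22, near the threshold and in the lowest part of the list, where 97.3% of HMGA2 peaks scored as high or higher. The γ-H2AX peaks of Egr1 lay 1943 and 7969 bp from the lower-coordinate end (scores 22.72 and 20.56), and its ATM peak 2405 bp from the higher-coordinate end (score 28.11). No strand was held for Egr1, Egr3, Ier2 or Myc, so sides are given by coordinate.

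Egr2 (gene 13654, chromosome 10, 67534469 to 67542188, plus strand) had no peak in its body, where the CArG boxes and starts of its promoter entries lie. An HMGA2 peak lay 1998 bp upstream of the annotated gene, with a score of 29.81, and an ATM peak 3138 bp upstream, with a score of 24.11. Both fell in Gm32255, a long non-coding RNA gene that overlaps Egr2. A second ATM peak lay 586 bp downstream (score 22.7). Farther downstream, an HMGA2 peak at 67550172 to 67550343 (score 20.52) and a γ-H2AX peak at 67550332 to 67550546 (score 29.38) shared 12 bp. These stood 7984 and 8144 bp beyond Egr2, on the far side of Ado, which encodes a thiol dioxygenase.

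Egr3 (gene 13655, chromosome 14, 70077317 to 70082613) had the highest-scoring peak among the 42, an ATM peak at 70076458 to 70076685. It lay 632 bp from the lower-coordinate end of the gene, was 228 bp wide and scored 43.86. It ranked 981 in the ATM list, within the top 0.823%, and was one of the authors' ATM promoter regions. The other peaks of Egr3 had lower scores. Its body held an HMGA2 peak (score 24.62) and a γ-H2AX peak (score 21.09), separate from each other, and γ-H2AX peaks also lay at 9379 and 9954 bp on the lower-coordinate side (scores 26.95 and 21.68).

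Ier2 encodes a small nuclear protein induced by growth factors and was the member without a γ-H2AX peak, where 1.07 were expected from the chromosome. Ier2 (gene 15936, chromosome 8, 84661331 to 84662852) had an ATM peak across its higher-coordinate end, at 84662698 to 84662878, with 155 bases inside the gene and 26 outside and a score of 24.26. Its HMGA2 peak lay 1708 bp beyond the same end, with a score of 24.11. A γ-H2AX peak with a score of 29.07 lay 13919 bp from the other end, outside the region. Ier2 and Junb lie on the same chromosome with 314.1 kb between them, so their regions are separate.

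Myc (gene 17869, chromosome 15, 61985341 to 61990361) had HMGA2 and γ-H2AX peaks on opposite sides and no ATM peak, where 1.17 were expected. The HMGA2 peaks lay 2504 and 6119 bp from the lower-coordinate end, with scores of 22.45 and 34.17. The farther one, at 61978939 to 61979222, was the highest-scoring HMGA2 peak of the 10 genes and the widest, at 284 bp, within the top 5.81% of its list by score. The γ-H2AX peaks lay 614, 7841 and 9750 bp from the higher-coordinate end, with scores of 29.22, 22.77 and 26.46. Within 1 Mb on either side, 181 γ-H2AX peaks gave a local expectation of 2.28 beside the 3 observed, and 144 ATM peaks gave one of 1.81 beside none.

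Klf4 (gene 16600, chromosome 4, 55527137 to 55532475, minus strand) had HMGA2 and γ-H2AX peaks at the same place inside the gene. The HMGA2 peak ran from 55527883 to 55528014 with a score of 26.52. The γ-H2AX peak ran from 55527898 to 55528014 with a score of 29.06, so that all its 117 bp were shared. The place is 4461 bp from the gene start, toward the 3′ end. A second neighbouring pair lay upstream, where the γ-H2AX peak (8982 bp, score 22.22) and the HMGA2 peak (9281 bp, score 23.56) were 104 bp apart in the long non-coding RNA gene Gm12506. The remaining γ-H2AX peak lay 1328 bp downstream (score 24.79). No ATM peak was found in the region, where 1.17 were expected from the chromosome.

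Peaks of different antibodies overlapped at 3 of the 10 genes, Fos, Egr2 and Klf4, against 19.6% of protein-coding genes. All were pairs of HMGA2 and γ-H2AX, a pair found at 9.72% of protein-coding genes. No HMGA2 peak of the 10 genes overlapped an ATM peak, against 7.57% of protein-coding genes with such a pair, and no γ-H2AX peak overlapped an ATM peak, against 8.21%. At Egr2 the overlap was 12 bp, the edge of both peaks. The shared place nearest to the start of its own gene was that of Klf4, at 4461 bp.

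By side of the gene, the 6 members with a known strand had 26 peaks, of which 9 lay upstream, 14 downstream and 3 in the body. HMGA2 had 6 upstream and 4 downstream peaks. γ-H2AX had 1 upstream and 6 downstream, and ATM 2 upstream and 4 downstream. The upstream γ-H2AX peak is that of Klf4 at 8982 bp, while the peak over the start of Jun counts as in the body. The downstream γ-H2AX peaks of Junb lie inside Rnaseh2a. The same split over all protein-coding genes is not given here, so these numbers describe 6 genes and are not read as a trait of them.

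The authors' promoter lists held 3 regions within 10 kb of the 10 genes, those of Jun, Junb and Egr3 described above, or 3 of 10 genes against 18.6% of protein-coding genes. Regions of the γ-H2AX list were found at 2 of the genes, against 14.4%, and of the ATM list at 1, against 5.79%. With flanks of 1 kb the Junb region dropped out and Jun and Egr3 stayed, 2 of the 10 genes against 14.3% of protein-coding genes.

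By combination of antibodies, 5 genes had peaks of all 3 (Jun, Junb, Egr1, Egr2 and Egr3), a combination seen at 54.9% of protein-coding genes. The 4 genes Fos, Fosb, Myc and Klf4 had HMGA2 and γ-H2AX without ATM, seen at 8.43%, and Ier2 had HMGA2 and ATM without γ-H2AX, seen at 7.59%. These shares come from longer genes, with a median of 17.2 kb against 4.39 kb, and shorter regions more often lack a peak of an antibody. In the flanks alone, of equal width, 6 of the 10 genes had an ATM peak against 57.3% of protein-coding genes. A gene without a peak has none past the authors' threshold, which does not show that the protein was absent. The limit of 10 kb bears on these combinations. The γ-H2AX peaks of Junb and Egr2 all lay more than 7 kb from the gene, so that a shorter limit would leave both without one, while a longer limit would add ATM to Klf4. The peaks just inside it were the γ-H2AX peak of Egr3 at 9954 bp and the HMGA2 peak of Fos at 9880 bp. Just outside were ATM peaks at 10874 bp from Egr1 (score 23.25) and 11395 bp from Klf4 (score 22.45), and an HMGA2 peak at 11848 bp from Egr2 (score 35.15).

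The other genes of the response were 49 further immediate early genes, feedback inhibitors and upstream signalling genes, with a median length of 12.3 kb. HMGA2 peaks were found at 39 of the 49 (79.6%, against 74.6% of protein-coding genes), γ-H2AX peaks at 43 (87.8% against 79.2%) and ATM peaks at 38 (77.6% against 77.7%). Peaks of all 3 antibodies were found at 30 of the 49, a share near the 54.9% of protein-coding genes, so the genes named next are a description. Among AP-1 genes these were Fosl1, Fosl2, Jund and Batf. Among other transcription factor genes they were Nr4a1, Nr4a3, Klf6, Klf10 and Ier5. Ccn1, Ier3 and Plk2 represented the secreted and cytoplasmic products. Dusp6, Zfp36, Spry4, Nab1 and Nab2 represented the feedback inhibitors, of which the Nab proteins are corepressors of Egr factors. The upstream signalling genes included Elk3, Elk4, Mrtfa, Mrtfb, Map2k1, Braf, Hras, Rps6ka3, Rps6ka5 and Creb1. The median length of the 16 upstream signalling genes was 63.9 kb, so they offered more sequence for peaks.

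High HMGA2 scores among the 49 genes were found 4.09 kb from Plk2, a polo-like kinase gene (43.06), and in Braf, which encodes a MAP kinase kinase kinase (39.52). The highest γ-H2AX scores were in Mrtfb, a coactivator gene of serum response factor (49.69), in Creb1 (48.5), and 7.69 kb from Atf3, a stress-induced bZIP gene (47.34). High ATM scores were found in Rps6ka3, which encodes a ribosomal S6 kinase (39.75), and in Spry4, an inhibitor gene of receptor tyrosine kinase signalling (36.49). The ATM peak beside Egr3 (43.86) stood above the ATM scores of all 49 genes.

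Regions of the promoter lists were found at 8 of the 49 genes, close to the 18.6% of protein-coding genes with such a region. The ATM list held regions at Fosl2 (score 30.18, 0.202 kb from the gene), Ier5 (22.86, 0.383 kb) and Zfp36, which encodes an mRNA-destabilising protein (26.07, 0.007 kb). The γ-H2AX list held regions at genes that included Klf10 (26.06, 0.483 kb), Ier3 (23.02, 0.108 kb) and Hras (20.1, 0.415 kb). Mrtfa, the other coactivator gene of serum response factor, had 2 regions of that list, 1 in the gene (23.09) and 1 at 0.496 kb (41.33). Those at Klf10, Hras and Mrtfa also lay within 1 kb of another annotated gene.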

How the data were processed

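Peak calling is described in the labels. The authors ran MACS14 on the wild-type libraries with the model switched off, a shift size of 30 bp and a p threshold of 0.01. Trimmomatic, Bowtie2, SAMtools, HOMER and the build mm10 are listed, with no version, in the submitters' processing notes. Which control the calls used is not given in the sources used here. Each peak has a score deposited by the authors, used here to describe and rank peaks within a list. The deposited promoter lists hold start and end positions of regions and no value. All 2220 γ-H2AX and 788 of 866 ATM regions were identical to a peak once their starts were counted from 1. Depth is unknown, since the lists give no read counts.

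Gene extents came from RefSeq on GRCm38.p6 and strands from its promoter table. Regions were genes with 10 kb on either side. Window counts and the exact mean over rotations, over the span from first to last peak of a chromosome, were computed in Python 3.11.15 with pandas 2.3.3 and tested on simulated data. Exons were not annotated. The members and lists were chosen with earlier results of these data known. From the further response genes, those with peaks of all 3 antibodies, with a promoter-list region or with the 3 highest scores of an antibody are named, apart from a few that are not reported here.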

Additional observations from a re-analysis of the deposited data

How the results depend on the processing

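No paired analysis was possible because each antibody had 1 library and no result comes from a test. Of 53 alternative values, 40 stayed within 1.5 times the reported count or, for ratios of observed to expected peaks, within the 95% Poisson interval of the observed count. That interval is wide at such small counts. γ-H2AX ratios from 0.983 to 1.87 all counted as unchanged beside 1.42, so the 40 do not show that the ratios are stable. With flanks of 1 kb, HMGA2 peaks were found at 4 of the 10 genes and γ-H2AX peaks at 5, against 53.4% and 59.5% of protein-coding genes. With scores of at least 25, HMGA2 peaks were found at 5 of the 10 genes and 23 of the 49 further response genes, and ATM peaks at 3 and 24, against 49.3% (HMGA2) and 49% (ATM) of protein-coding genes. With scores of at least 30, HMGA2 peaks were found at 2 and 11 genes, against 24.4% of protein-coding genes. ATM peaks were found at 1 and 14, against 21.6%, and γ-H2AX peaks at 0 and 14, against 25.7%. The γ-H2AX ratio of observed to expected was then 0. These shares come from genes with a longer median length (17.2 kb) than the 10 (4.39 kb) or the 49 (12.3 kb). Shorter flanks and higher scores leave fewer peaks to count by construction. Most peaks lie close to the threshold of the calls, so the presence or absence of 1 peak at a gene rests on a narrow range of scores. Depth is unknown.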

Other observations

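The neighbourhoods of the 10 genes differed in peak density. Within 1 Mb on either side, outside the regions, Fosb and Egr3 had 59 and 60 HMGA2 peaks, while Jun and Myc had 168 and 165. For γ-H2AX the numbers ran from 73 at Fosb to 181 at Myc, and for ATM from 80 at Fosb to 144 at Myc. Myc thus had the densest γ-H2AX and ATM neighbourhood of the 10 and no ATM peak in its own region. Fos had 82 HMGA2 peaks in its neighbourhood, a local expectation of 0.966, beside the 3 observed. Around Egr1, an ATM peak 14097 bp from the higher-coordinate end (score 28.11) overlapped a γ-H2AX peak at 13958 bp (score 21.38), outside the 10 kb limit.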
